A study of Mus musculus with 14 samples.

Results

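The genes described here are 10 transcripts of hepatic stellate cells and liver fibroblasts other than collagens: Dcn, Reln, Lrat, Des, Pdgfrb, Lum, Itga8, Cxcl14, Ecm1 and Colec11. They are 10 of the 24411 genes counted in the deposited files, and 9 of the 10 had enough reads for a model fit (Des did not). The list was chosen by results of these same samples in all 4 groups, so their differences between groups are given as a description, with no p-value. RNA came from livers of male littermate mice aged 5 to 7 months with floxed Rbbp5 alleles on both chromosomes. The RBBP5 protein is a core component of the COMPASS family of H3K4 methyltransferases. The WT mice, Rbbp5 (flox/flox); Alb-CRE (-/-), carried the floxed alleles without Cre. The LKO mice, Rbbp5 (flox/flox); Alb-CRE (+/-), carried 1 copy of a Cre transgene under the albumin promoter, which is active in hepatocytes and not known for activity in stellate cells. Mice of each genotype received a single intraperitoneal injection, either of vehicle (3% DMSO in PBS) or of tunicamycin at 0.05 mg/kg in the same vehicle. Tunicamycin blocks N-linked glycosylation and so stresses the endoplasmic reticulum. The mice were injected in the morning and the liver was taken after 8 h. The libraries numbered 3 for each WT group and 4 for each LKO group.

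Stellate cells lie between the hepatocytes and the sinusoidal endothelium, store vitamin A as retinyl esters and, when the liver is injured, turn into matrix-producing myofibroblasts. Platelet-derived growth factor (PDGF) and transforming growth factor beta (TGF-beta) are the classic signals of that conversion. In whole liver RNA these cells are a minority among hepatocytes, so their transcripts are low, and fewer cells of a type and less RNA per cell cannot be told apart.

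Reads on the gene's strand numbered from 6507018 to 13519421 per library, and from 1704479 to 3551398 without Rn45s, a ribosomal RNA gene that took from 72.5 to 75.5%. Libraries 3 and 4 of the LKO vehicle group were close to counting noise apart, with a chi-square of 1.12 per degree of freedom against at least 3.05 in every other pair of the same group. They were summed and counted as 1 sample, LKO vehicle 3-4, which left 13 samples in groups of 3, 3, 3 and 4. Rbbp5 had from 4.07 to 6.41 CPM (reads scaled to a normalised library size) in WT samples and from 1.90 to 4.15 in LKO samples, and LKO vehicle 1, at 4.15 CPM, lay within the WT vehicle range. The labels do not say whether replicates came from separate mice, so spread between samples may be partly technical. WT tunicamycin 3 stood apart from the other WT tunicamycin libraries, with a chi-square of 25.1 and 25.5 per degree of freedom against them.

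Compared per transcript length, in the deposited FPKM (a read abundance divided by length and depth), decorin was the most abundant of the 10 by a wide margin. Dcn, which encodes this small proteoglycan of collagen fibrils, averaged 13.8 FPKM over the 13 samples (SD 3.02) and was above the next gene in 13 of 13. The second was Ecm1 at 2.52 ± 0.539 FPKM, which encodes extracellular matrix protein 1, a secreted binder of matrix proteins that hepatocytes also make. It was above the third gene, Cxcl14, in 10 of 13 samples.

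Below these the order over all 13 samples was not resolved. Cxcl14 averaged 1.15 FPKM with an SD of 1.25, Colec11 1.05 ± 0.286, Lrat 1.01 ± 0.340, Reln 0.984 ± 0.258 and Lum 0.967 ± 0.544. Each neighbour was above the next in only 5 to 7 of 13 samples. For Cxcl14 the order changed with the group. In WT vehicle it had 0.0458 to 0.226 FPKM, below Colec11 at 0.930 to 1.03. In LKO tunicamycin it had 1.61 to 3.85 FPKM, above Colec11 at 0.595 to 1.35. The step from Lum down to Itga8, at 0.252 ± 0.160 FPKM, held in 13 of 13 samples. Pdgfrb followed at 0.216 ± 0.120 FPKM and Des at 0.139 ± 0.0720 FPKM, and these neighbours were in that order in 7 and 9 of 13 samples. Des encodes the intermediate filament desmin, a long-used marker of rodent stellate cells, and it rested on only 4 to 19 reads per sample.

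For description, the 9 tested genes were split into 2 sets by their genotype differences, a cut made on these same values. Des was in neither set. Pdgfrb, Lum, Itga8 and Cxcl14 were higher in every LKO sample than in every WT sample of the same treatment, with vehicle and again after tunicamycin. Dcn, Reln, Lrat, Ecm1 and Colec11 differed by at most 0.42 on the log2 scale in either comparison and their groups overlapped. The plot of CPM by sample and the values that follow show both kinds. In all tested genes, LKO samples lay wholly above WT samples in 7.52% with vehicle and in 6.34% after tunicamycin, and the counts of 4 of 9 stand beside these shares only as a description, since the same values chose the genes.

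**Figure D1:**
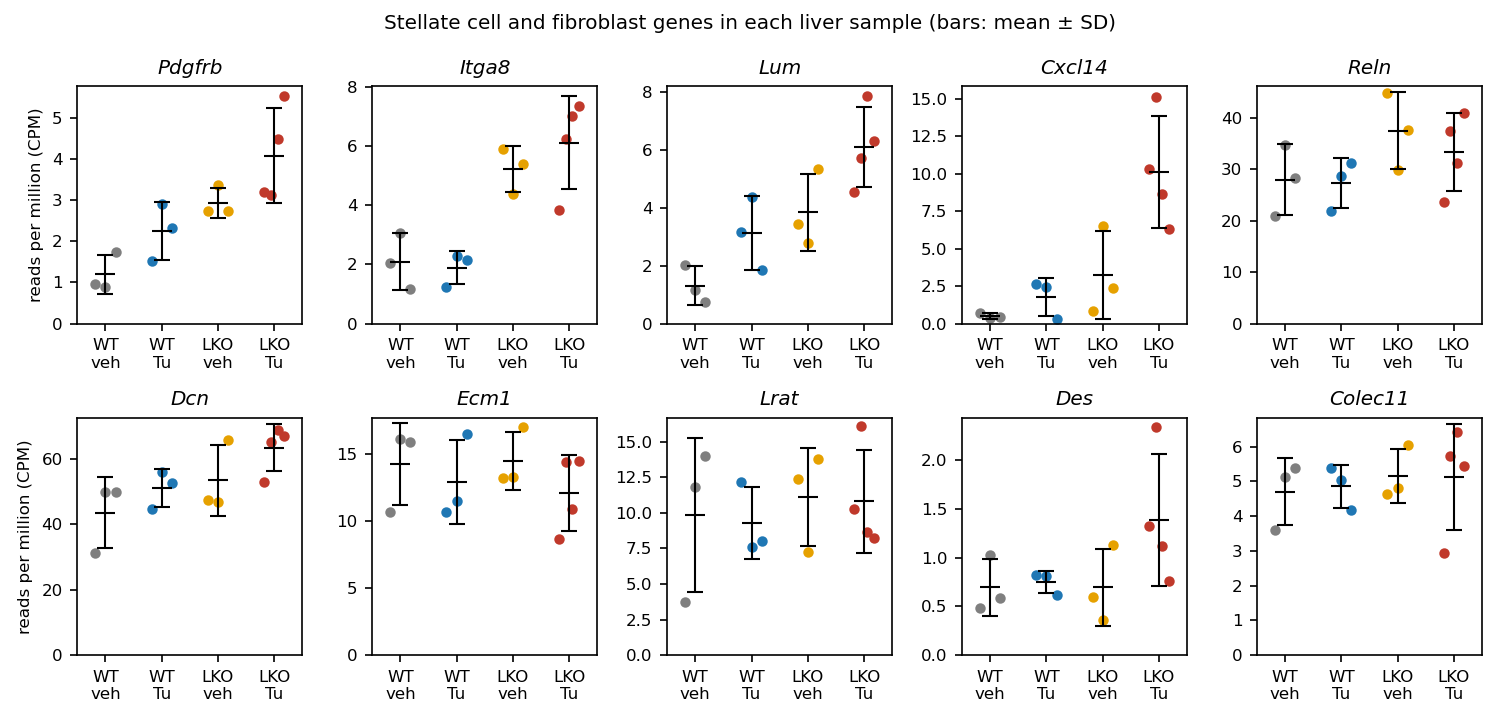
Abundance of the 10 genes in each of the 13 samples, in CPM on a linear axis that starts at 0. Points are samples by group (veh, vehicle; Tu, tunicamycin), and bars are the group mean ± SD. For Pdgfrb, Itga8, Lum and Cxcl14 each LKO group lies above the WT group of the same treatment, while the groups of the other 6 genes overlap.

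Pdgfrb encodes the beta receptor for PDGF, through which stellate cells are driven to divide and migrate. It had 0.958, 0.897 and 1.75 CPM in WT vehicle samples 1, 2 and 3, and 2.73, 3.36 and 2.73 in LKO vehicle samples 1, 2 and 3-4. The lowest LKO sample was above the highest WT sample. After tunicamycin it had 1.51, 2.92 and 2.32 CPM in WT and 3.20, 3.12, 4.48 and 5.54 in LKO, so the groups again did not overlap, although WT tunicamycin 2 came close to LKO tunicamycin 2. Fitted LKO minus WT differences (log2) were 1.31 ± 0.33 (SE) for vehicle livers and 0.89 ± 0.29 for tunicamycin livers. These values rest on 7 to 51 reads per sample.

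Itga8, on chromosome 2 from 12106660 to 12301920 (mm10), encodes the alpha 8 integrin subunit, which pairs with beta 1 and binds matrix ligands that carry an RGD motif. WT vehicle samples had 2.04, 3.08 and 1.17 CPM and LKO vehicle samples 5.92, 4.38 and 5.40. WT tunicamycin samples had 1.24, 2.27 and 2.16 CPM, and LKO tunicamycin samples 3.86, 6.25, 7.03 and 7.38. Every LKO sample exceeded 3.08 CPM, the highest WT value of either treatment. The log2 fold change was 1.29 ± 0.30 with vehicle and 1.72 ± 0.31 after tunicamycin.

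Lum (chromosome 10, 97565501 to 97572703) encodes lumican, a small leucine-rich proteoglycan that binds collagen fibrils. It lies on the same strand as Dcn, which belongs to the same protein family, with 47338 bases between them. WT vehicle samples had 2.04, 1.15 and 0.729 CPM of Lum and LKO vehicle samples 3.44, 2.77 and 5.34. After tunicamycin WT samples had 3.16, 4.38 and 1.85 CPM and LKO samples 4.53, 5.73, 7.85 and 6.30, and the gap between the groups narrowed to that between 4.38 and 4.53. The log2 fold change between genotypes was 1.54 ± 0.38 with vehicle and 0.98 ± 0.31 after tunicamycin.

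Cxcl14 (chromosome 13, 56288643 to 56296551) encodes a chemokine that many epithelia and fibroblasts secrete. It was nearly silent in WT vehicle livers, at 0.718, 0.384 and 0.437 CPM, which are 6, 3 and 3 reads. LKO vehicle samples were uneven, at 0.83, 6.50 and 2.37 CPM. The lowest, LKO vehicle 1, held 7 reads against the 6 of WT vehicle 1, so the vehicle groups were barely apart. LKO vehicle 1 is also the sample whose Rbbp5 level was within the WT range. In that sample Itga8, at 5.92 CPM, was the highest of the LKO vehicle group. Lum, at 3.44 CPM, was in the middle there, and Pdgfrb, at 2.73 CPM, was level with LKO vehicle 3-4. A link to the Rbbp5 level was not tested. WT tunicamycin samples had 2.61, 2.43 and 0.309 CPM, and the lowest, WT tunicamycin 3, held 2 reads. All LKO tunicamycin samples were high, at 10.3, 15.1, 8.66 and 6.30 CPM. The log2 fold change between genotypes was 2.68 ± 0.77 with vehicle and 2.46 ± 0.54 after tunicamycin, the widest errors of the 9 genes. Without LKO vehicle 1 or WT tunicamycin 3 the direction was the same, and without WT tunicamycin 3 the value after tunicamycin was 1.97. Without LKO vehicle 2, the sample with 6.50 CPM, the vehicle value was 1.75.

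**Figure D2:**
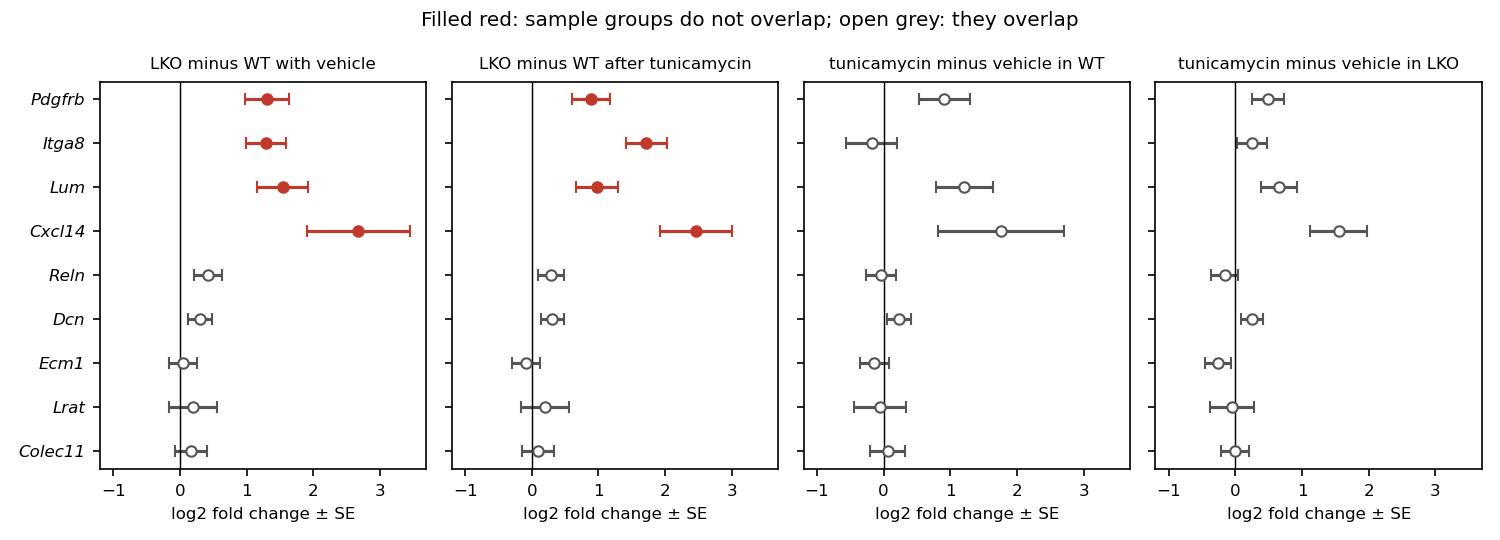
Log2 fold change ± SE of the 9 tested genes from the edgeR fit, in the genotype comparisons and the tunicamycin comparisons. Filled red points mark genes whose groups of samples do not overlap and open grey points those whose groups do; the filled points are Pdgfrb, Itga8, Lum and Cxcl14 in both genotype comparisons.

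Reln had the largest vehicle difference among the other 5 tested genes. It encodes reelin, a secreted glycoprotein best known from the developing brain, which stellate cells make in the liver. WT vehicle samples had 21.0, 34.7 and 28.3 CPM and LKO vehicle samples 44.9, 29.9 and 37.7. WT tunicamycin samples had 21.9, 28.7 and 31.3 CPM and LKO tunicamycin samples 23.7, 37.5, 31.3 and 41.0. The groups overlapped in both, and the log2 fold change was 0.42 ± 0.21 with vehicle and 0.29 ± 0.20 after tunicamycin. Of the receptors of reelin and its adaptor, Vldlr had at most 13 reads in a sample, Dab1 at most 5 and Lrp8 at most 1, so none was tested.

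Dcn (chromosome 10, 97479500 to 97518162) had 31.1, 49.8 and 49.9 CPM in WT vehicle and 47.5, 46.9 and 65.9 in LKO vehicle. After tunicamycin it had 44.7, 56.1 and 52.6 CPM in WT and 52.8, 65.2, 68.9 and 66.9 in LKO. Of the LKO samples only tunicamycin 1 fell inside the WT tunicamycin range, and with vehicle 2 of the 3 LKO samples lay under the highest WT sample. The log2 fold change with vehicle was 0.30 ± 0.18, and 0.31 ± 0.17 after tunicamycin, so Dcn and its neighbour Lum, though of the same protein family, differed between the genotypes by unequal amounts.

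Lrat encodes lecithin retinol acyltransferase, which esterifies retinol for storage and marks quiescent stellate cells. Its levels overlapped in every comparison: 3.71, 11.8 and 14 CPM in WT vehicle, 12.2, 7.62 and 8.03 in WT tunicamycin, 12.4, 7.23 and 13.8 in LKO vehicle, and 10.3, 16.1, 8.66 and 8.25 in LKO tunicamycin. The log2 fold change between genotypes was 0.20 ± 0.36 with either treatment. WT vehicle 1, at 3.71 CPM, was the lowest of all samples, and without it the vehicle value turned to -0.22; without LKO vehicle 3-4 it was -0.01.

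Colec11 encodes a collectin, a lectin that recognises sugars on microbes and starts the lectin pathway of complement. It ranged from 3.59 to 5.39 CPM in WT vehicle, 4.17 to 5.37 in WT tunicamycin, 4.62 to 6.05 in LKO vehicle and 2.93 to 6.42 in LKO tunicamycin. Ecm1 ranged from 10.7 to 16.1, 10.7 to 16.5, 13.2 to 17.0 and 8.66 to 14.5 CPM in the same order. The genotype differences of Colec11 were 0.16 ± 0.24 and 0.09 ± 0.24 on the log2 scale, and those of Ecm1 0.04 ± 0.21 and -0.08 ± 0.21. Des had from 0.365 to 1.13 CPM in LKO vehicle and from 0.479 to 1.03 in WT vehicle. After tunicamycin it had 1.33, 2.34, 1.12 and 0.760 CPM in LKO and 0.826, 0.811 and 0.617 in WT, which overlap. Fitted without a filter on low counts, its genotype difference was 0.06 ± 0.51 with vehicle and 0.84 ± 0.48 after tunicamycin.

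In edgeR's quasi-likelihood fit, a gene was called when its Benjamini-Hochberg adjusted p over all 9644 genes tested was under 0.05. With vehicle 0 of the 9 genes were called in LKO against WT (Pdgfrb, Lum, Itga8 and Cxcl14 were in the fit with no filter on low counts), where the whole table had 0.0415% called, and after tunicamycin 2 were, Itga8 and Cxcl14, both higher, where the whole table had 0.861% called and 0.311% called higher. Because these contrasts chose the genes, nothing is read from these counts, nor from the calls in the leave-one-out fits that follow. With each sample left out in turn, Itga8 was called in 10 of 13 fits and Cxcl14 in 4. Itga8 was not called without WT tunicamycin 1 or without LKO tunicamycin 3 or 4, with log2 fold changes of 1.47, 1.65 and 1.63. Cxcl14 was called only without WT tunicamycin 2 or without LKO vehicle 1, 2 or 3-4. With vehicle 9 of 9 had a positive log2 fold change (median 0.42, against 0.00 over all genes tested), and after tunicamycin 8 of 9 (median 0.31, against -0.01). The vehicle count was 6 of 9 without WT vehicle 1 and 7 of 9 without LKO vehicle 3-4. Total count scaling, which moved the median of all genes after tunicamycin by 0.15, gave 9 of 9 there, with Ecm1 turned positive.

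With tunicamycin the largest fitted differences among the 9 tested genes were in Cxcl14, Lum and Pdgfrb, but the groups overlapped. In WT the log2 fold change of tunicamycin against vehicle was 1.76 ± 0.94 for Cxcl14, 1.21 ± 0.43 for Lum, 0.91 ± 0.38 for Pdgfrb and -0.18 ± 0.38 for Itga8. In LKO the values were 1.55 ± 0.43, 0.65 ± 0.27, 0.49 ± 0.24 and 0.25 ± 0.23. Each of the 9 genes overlapped between treatments in both genotypes, including Cxcl14 in LKO, whose highest vehicle sample (6.50 CPM) just exceeded its lowest tunicamycin sample (6.30 CPM). For Dcn, Reln, Lrat, Ecm1 and Colec11 the tunicamycin values lay between -0.14 and 0.23 in WT and between -0.26 and 0.25 in LKO. Des, fitted without a filter on low counts, was at 0.09 ± 0.58 in WT and 0.87 ± 0.42 in LKO. The tunicamycin and genotype comparisons share samples, so their values for a gene are not independent of each other.

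None of the 9 was called by tunicamycin (0 in WT and 0 in LKO by edgeR), beside 0.363% and 0.0311% of all genes. At an unadjusted p under 0.05 by edgeR there were 2 in each genotype, beside 1426 and 1172 of all 9644 genes. Groups that did not overlap were found in 17.3% and 11.6% of all genes. Because all 4 groups were used to choose the genes, nothing is read from these counts, nor from the calls of Cxcl14 that follow. Cxcl14 was called in LKO without LKO vehicle 2, at 2.47, and in the fit with no filter on low counts. Positive log2 fold changes numbered 5 of 9 in each genotype, with medians of 0.06 in WT and 0.25 in LKO beside 0.01 and 0.00 for all genes. Total count scaling moved the median of all genes by -0.19 in WT and turned Colec11 there from 0.06 to -0.13, and it gave 6 of 9 positive, in place of 2, for the difference that follows. The difference between the tunicamycin effects of LKO and WT was from -0.56 ± 0.51 for Lum to 0.44 ± 0.45 for Itga8, and 0.00% of all genes were called for it, with the smallest adjusted p at 0.935 and 474 genes at an unadjusted p under 0.05.

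**Figure D3:**
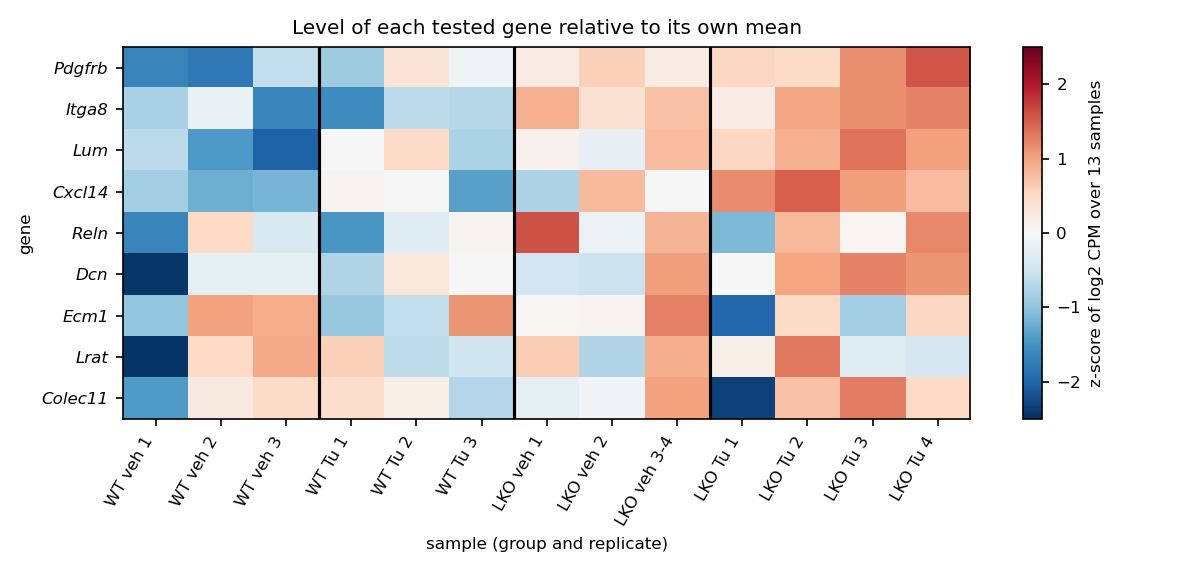
Level of each of the 9 tested genes in each sample as a z-score of log2 CPM over the 13 samples; red is above and blue below the gene's own mean, and black lines part the groups. WT vehicle 1 is blue in all 9 genes, and LKO vehicle 3-4 is red in 8, with Cxcl14 at its mean.

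Single samples stood apart across the list. Averaged over the 9 genes, the z-score was lowest in WT vehicle 1, at -1.44, where all 10 genes ranked among their 4 lowest samples. It was highest in LKO tunicamycin 2 at 0.91, LKO tunicamycin 4 at 0.83, LKO vehicle 3-4 at 0.75 and LKO tunicamycin 3 at 0.68. LKO vehicle 1 and 2 were at 0.22 and 0.02, so 6 of the 7 LKO samples lay above all 6 WT samples, which ran from -1.44 to -0.11. The genes were chosen with these groups in view, so this order is a description only. LKO tunicamycin 1, at -0.32, lay inside the WT range, with Colec11, Ecm1 and Reln low but Cxcl14 high. The heat map of z-scores shows this sample by sample.

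Pairs of genes also behaved differently once the group means were taken away. Over the 13 samples Pearson's r was 0.80 for Lum with Cxcl14, 0.76 for Pdgfrb with Lum and 0.71 for Pdgfrb with Cxcl14. Within groups it was 0.28, -0.12 and -0.14 for these pairs. For Reln with Ecm1 it was 0.64 over all samples and 0.79 within groups, for Dcn with Ecm1 0.30 and 0.75, and for Dcn with Colec11 0.58 and 0.72. Among the 4 genes of the first set, r within groups ran from -0.36 (Itga8 with Cxcl14) to 0.41 (Lum with Itga8), and among the other 5 from 0.41 (Reln with Lrat) to 0.79 (Reln with Ecm1). The first set rested on 2 to 116 reads per sample and the other 5 genes on 22 to 1110. The part of counting noise in the lower r of the first set was not tested. All points share the library and its depth, and these r values describe 13 samples only.

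The transcripts whose profile was most like the mean z-score of the 9 genes were ranked among the 5993 genes whose log2 CPM averaged 2 or more. Sparc, which encodes a collagen-binding matrix glycoprotein, came first at r = 0.947, followed by Abcc9, a potassium channel subunit of pericytes and stellate cells, at 0.909, and Tgfbi, a matrix protein induced by TGF-beta, at 0.899. Next were Col1a2 at 0.891, Lims1 at 0.887, Igfbp7 at 0.875, Ccnd1 (cyclin D1) at 0.855, Bgn (biglycan) at 0.853, Col3a1 at 0.851 and Col6a3 at 0.843, all over 13 samples. Sparc kept its likeness within groups, at 0.938, while Col6a3 had 0.610. The LKO minus WT log2 fold change of Col6a3 was 2.01 ± 0.33 with vehicle and 1.39 ± 0.30 after tunicamycin. It is given with no test, since these 10 were ranked by a profile that itself differed between the genotypes.

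Sequence before the start site is shown for 2 genes with large genotype differences, Cxcl14 and Itga8, and for Lrat and Colec11, which differed little. The 250 bases come from RefSeq on GRCm38.p6, read 5′ to 3′ on the gene's strand, and all 4 genes are on the minus strand: Cxcl14 at chr13:56296552-56296801, Itga8 at chr2:12301945-12302194, Lrat at chr3:82903975-82904224 and Colec11 at chr12:28623331-28623580. Capitals mark matches to CANNTG (the E-box, bound by basic helix-loop-helix factors such as Hand2 and Tcf21 of stellate cells), AGATAA, bound by GATA factors, and GGAATG, bound by TEAD factors, on either strand.
Cxcl14: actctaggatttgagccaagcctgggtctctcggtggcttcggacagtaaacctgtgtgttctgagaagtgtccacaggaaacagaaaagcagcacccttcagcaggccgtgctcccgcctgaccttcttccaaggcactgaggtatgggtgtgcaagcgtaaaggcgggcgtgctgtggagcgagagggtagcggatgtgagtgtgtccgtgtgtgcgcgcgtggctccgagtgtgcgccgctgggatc
Itga8: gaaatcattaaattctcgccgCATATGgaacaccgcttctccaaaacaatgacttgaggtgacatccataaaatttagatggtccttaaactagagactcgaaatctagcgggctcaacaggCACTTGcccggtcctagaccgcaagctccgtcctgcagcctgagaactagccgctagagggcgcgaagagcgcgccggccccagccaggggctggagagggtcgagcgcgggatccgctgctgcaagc
Lrat: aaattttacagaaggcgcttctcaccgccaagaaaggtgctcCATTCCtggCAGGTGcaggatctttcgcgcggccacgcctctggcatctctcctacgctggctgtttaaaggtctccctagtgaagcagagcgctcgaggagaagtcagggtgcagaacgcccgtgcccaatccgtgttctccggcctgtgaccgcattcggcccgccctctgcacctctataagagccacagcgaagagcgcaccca
Colec11: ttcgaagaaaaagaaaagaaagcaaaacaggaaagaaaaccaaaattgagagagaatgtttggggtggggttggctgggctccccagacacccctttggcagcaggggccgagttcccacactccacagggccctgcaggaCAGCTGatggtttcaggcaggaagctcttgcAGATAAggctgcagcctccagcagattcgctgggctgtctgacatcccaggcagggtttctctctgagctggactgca
The Cxcl14 window had 0 matches, Itga8 had 2 E-boxes, Lrat 1 E-box next to 1 TEAD match, and Colec11 1 E-box and 1 GATA match. E-boxes were in 66.2% of the windows of 32851 RefSeq promoters of the same length, GATA matches in 9.99% and TEAD matches in 12.6%. The AP-1 motif TGANTCA, in 6.75% of all windows, and the CArG box bound by serum response factor, in 1.47%, were searched too and had no match in these 4. Of the 10 genes 7 were matched to a promoter. Among these, E-boxes were in 6, TEAD, GATA and AP-1 matches in 1 each (Lrat, Colec11 and Ecm1) and CArG boxes in 0. GC content of the 7 windows ranged from 54.0% (Ecm1) to 80.0% (Reln), against a median of 52.4% over all windows. A match is a run of letters and not a shown binding site.

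The wider pathway was examined through 147 further genes in 7 lists, of which 142 were found by symbol and 93 were tested. With vehicle 76 of the 93 had a positive LKO minus WT log2 fold change (median 0.39, against 0.00 over all genes tested) and after tunicamycin 69 (median 0.36, against -0.01). By edgeR's adjusted p, 0 of the 93 were called with vehicle and 2 after tunicamycin, beside 0.0415% and 0.861% of all genes. At an unadjusted p under 0.05 by edgeR there were 33 and 36 of the 93, beside 786 and 1523 of all 9644 genes. The plot of log2 fold changes by list shows each gene.

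Matrix genes other than collagens were mostly higher in LKO. With vehicle 19 of 19 were higher in LKO, with a median of 0.71, and in 13 the LKO samples lay wholly above the WT samples, beside 7.52% of all genes. After tunicamycin 15 of 19 were higher, with a median of 0.65, and the groups did not overlap in 5, beside 6.34% of all genes. Of the 19, 2 were called higher, beside 0.311% of all genes. Nid1 encodes nidogen, which links laminin to type IV collagen in basement membranes. It had 5.92, 7.94 and 4.32 CPM in WT tunicamycin and 11.9, 13.3, 13.9 and 12.8 in LKO tunicamycin, a log2 fold change of 1.10 ± 0.20 (edgeR adjusted p 0.0188). Its call was lost without WT tunicamycin 1 or 3 (adjusted p 0.118 and 0.0511) and without LKO tunicamycin 3 or 4 (0.0560 and 0.0502).

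Thbs2 encodes thrombospondin 2, a matricellular protein of fibroblasts. It had 0.275, 0.973 and 0.154 CPM in WT tunicamycin and 1.73, 2.34, 2.04 and 1.63 in LKO tunicamycin, a log2 fold change of 2.06 ± 0.46 (edgeR adjusted p 0.0459). With 1 to 6 reads in each WT tunicamycin sample, this call was lost in 11 of 13 leave-one-out fits, and it was present without WT tunicamycin 2 or without LKO vehicle 3-4. In the remaining matrix genes, adjusted p missed the threshold; Smoc2, Fbn1 and Dpt, named after their values were seen, had log2 fold changes of 2.22, 1.57 and 1.97 with vehicle and 1.52, 1.0 and 0.88 after tunicamycin.

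Genes of activation and contraction were higher in LKO in 11 of 11 with vehicle (median 0.80) and in 11 of 11 after tunicamycin (median 0.54). By edgeR's adjusted p, 0 were called. The LKO samples lay wholly above the WT samples in 6 of the 11 with vehicle, beside 7.52% of all genes. After tunicamycin this held in 0 of the 11, beside 6.34% of all genes. The classic activation marker Acta2, smooth muscle actin, was too low to test, with 1 to 17 reads per sample and at most 1.30 CPM, reached in WT tunicamycin 2. Timp1 had at most 2 reads and Lox at most 11. Tested members of the list included Mmp2 at 1.48 and 1.39, Vim at 1.03 and 0.54, and Tagln at 1.29 and 0.42 (log2, with vehicle and after tunicamycin), chosen after their values were seen, none of them called.

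Among the ligands, receptors and mediators of PDGF and TGF-beta, 12 of 14 were higher with vehicle (median 0.29) and 11 of 14 after tunicamycin (median 0.27), with 0 called. Pdgfra, the alpha receptor, was at 0.62 and 0.54, less than the 1.31 and 0.89 of Pdgfrb. Of the ligands Pdgfa was at 0.56 and 1.20, Pdgfc at 0.86 and 0.26 and Tgfb1 at 0.57 and 0.73. Pdgfb, the main ligand of the beta receptor, had at most 7 reads and was not tested. The receptors Tgfbr1 and Tgfbr2 were at 0.14 and 0.28, and at 0.39 and 0.46.

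Retinoid genes, the pathway of Lrat, were split, with 12 of 19 higher with vehicle (median 0.12), 13 of 19 after tunicamycin (median 0.07) and 0 called. Cyp26a1, which breaks down retinoic acid, was at 1.05 with vehicle and 1.02 after tunicamycin, Dhrs3, a retinal reductase, at 0.22 and 0.50, and Rbp4, the plasma carrier of retinol that hepatocytes secrete, at -0.16 and -0.49, all named after their values were seen. Genes of the lectin pathway list were higher in 3 of 7 and 2 of 7 (medians -0.05 and -0.11), with 0 called. The second median turned to 0.04 with total count scaling. Other stellate identity genes were higher in 19 of 23 with vehicle (median 0.32) and in 17 of 23 after tunicamycin (median 0.34), with 0 called between genotypes.

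**Figure D4:**
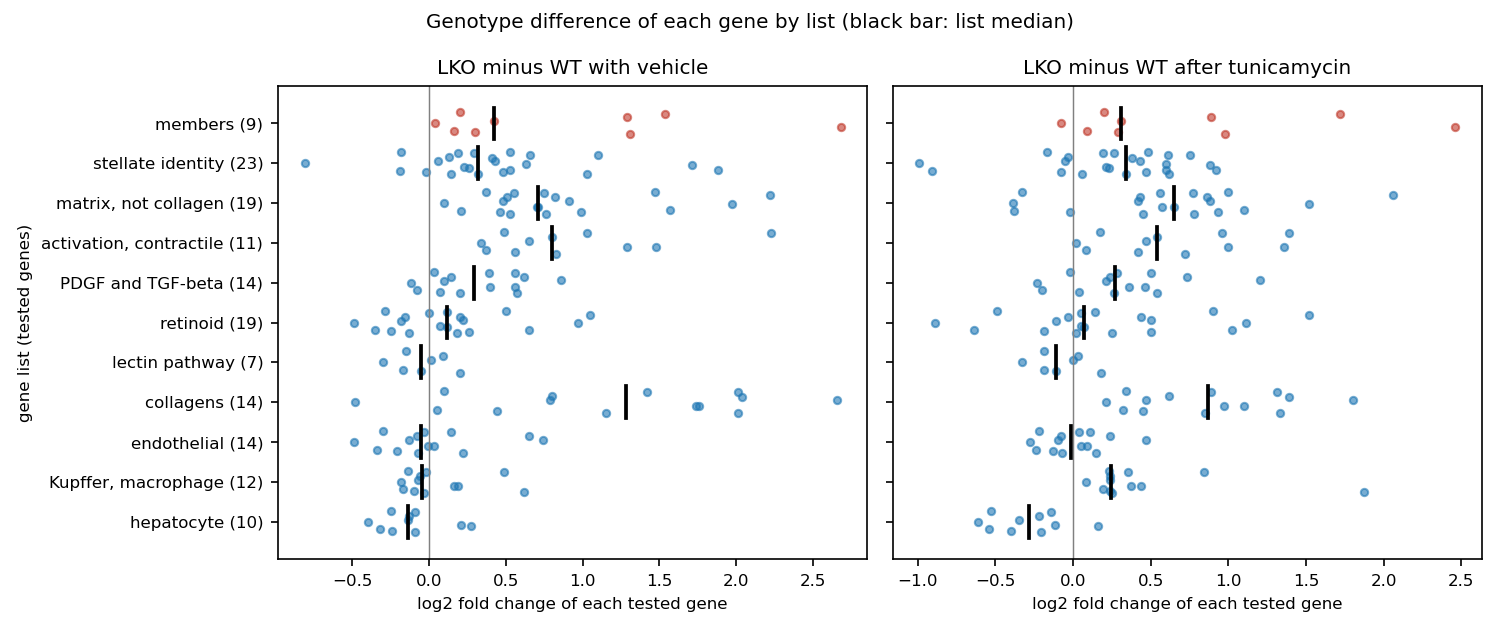
LKO minus WT log2 fold change of every tested gene by list, with vehicle and after tunicamycin; each point is a gene, the black bar is the list median, and the number of tested genes follows the list's name. Points of the matrix, activation and collagen lists lie mostly to the right of 0, while the endothelial, lectin pathway and hepatocyte lists centre near or left of 0.

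By edgeR's adjusted p, tunicamycin called 1 of the 93 tested wider-list genes in WT and 0 in LKO, beside 0.363% and 0.0311% of all genes. At an unadjusted p under 0.05 by edgeR there were 14 and 12 of the 93. Of all 9644 genes there were 1426 and 1172, a similar share in each genotype. Steap4, a metalloreductase on the stellate identity list that hepatocytes also express, had 49.6, 63.0 and 66.5 CPM in WT vehicle and 408, 234 and 71.9 in WT tunicamycin. WT tunicamycin 3 was close to the vehicle samples, and the log2 fold change was 2.0 ± 0.40 (edgeR adjusted p 0.0399). In LKO it had 65.9, 87.5 and 61.2 CPM with vehicle and 100, 159, 108 and 113 after tunicamycin, at 0.75 ± 0.36 (adjusted p 0.427), and the difference between the genotypes was -1.25 ± 0.53 (adjusted p 0.938). The WT call was lost in 9 of 13 leave-one-out fits and kept without WT tunicamycin 3, LKO vehicle 1, LKO vehicle 2 or LKO vehicle 3-4. Without WT tunicamycin 3 its log2 fold change was 2.43 (adjusted p 7.07e-05), and without WT tunicamycin 1 it was 1.36 (adjusted p 0.203).

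Markers of other cell types were read beside these results. Some of these lists share genes with the lists above, so their counts are not separate. Spp1 is on the bile duct and activation lists, and Tagln and Acta2 are on the smooth muscle and activation lists. Thy1, Eln and Fbln2 are on the portal fibroblast list and on the activation or matrix list. Collagens, which stellate cells and fibroblasts share, were higher in LKO in 13 of 14 with vehicle (median 1.28) and 14 of 14 after tunicamycin (median 0.87). LKO samples lay wholly above WT samples in 10 of the 14 with vehicle, beside 7.52% of all genes. After tunicamycin this held in 1 of the 14, beside 6.34% of all genes. Endothelial markers were higher in 5 of 14 and 7 of 14 (medians -0.05 and -0.02), with 0 called, and their summed CPM ranged from 127 to 144 in WT vehicle, 136 to 138 in WT tunicamycin, 112 to 171 in LKO vehicle and 121 to 145 in LKO tunicamycin. These ranges overlap between the genotypes, and with total count scaling the median after tunicamycin turned to 0.13. Kupffer cell and macrophage markers were higher in 4 of 12 with vehicle and in 12 of 12 after tunicamycin (medians -0.04 and 0.25), with 0 called and sums of 72.0 to 83.5, 76.3 to 101, 55.1 to 92.1 and 82.3 to 160 in the same order of groups. Their part in the results after tunicamycin was not tested.

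Of the 11 markers of portal fibroblasts and mesothelium, 0 had enough reads to be tested. Msln had 0 to 3 reads and Thy1 0 to 5 per sample, and the summed CPM of the list was from 1.44 to 2.43 in WT vehicle, 1.79 to 4.63 in WT tunicamycin, 3.07 to 5.40 in LKO vehicle and 2.0 to 4.38 in LKO tunicamycin. The vehicle groups did not overlap, LKO being higher, and the tunicamycin groups did. The part of these cells in the vehicle differences between genotypes was not tested. Vascular smooth muscle markers were higher in 4 of 4 tested in both comparisons (medians 0.21 and 0.51), with sums of 20.7 to 28.6 in WT and 29.3 to 34.2 in LKO samples, so all LKO samples were above all WT samples. Mylk, a myosin kinase, made up most of these sums at 17.1 to 26.8 CPM, while none of the other 6 markers exceeded 3.21 CPM in a sample. Myh11, the defining gene, had 1.08, 1.92 and 3.21 CPM in WT vehicle and 2.61, 1.97 and 2.61 in LKO vehicle, which overlap. After tunicamycin it ranged from 0.550 to 2.27 in WT and from 0.869 to 2.55 in LKO, which overlap too. The part of smooth muscle in the higher Pdgfrb and Itga8 was not tested.

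Bile duct markers were higher in 4 of 4 tested with vehicle and in 3 of 4 after tunicamycin (medians 0.96 and 0.66), with sums of 11.8 to 16.6, 12.5 to 46.9, 23.3 to 63.0 and 42.1 to 119 CPM, of which Spp1 alone reached 105. The defining markers Krt19 and Epcam had at most 14 and 11 reads in a sample and were at 0 in some samples. Lymphocyte markers had 1 gene of 10 tested, with sums of 3.46 to 5.92 in WT and 5.26 to 6.93 in LKO. Hepatocyte markers were higher in 2 of 10 with vehicle and 1 of 10 after tunicamycin (medians -0.13 and -0.28), and Hnf4a, singled out after its values were seen, was called lower after tunicamycin at -0.54. The part of these markers in the results was not tested.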

How the data were processed

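Liver RNA of 14 libraries in 4 groups was used. The authors deposited whole-read counts per gene from STAR for each library, and the column of reads on the gene's strand was taken. That column held from 99.5 to 99.6% of stranded reads. The authors also deposited a table of FPKM values, here used for levels between genes and as an alternative. Trimmomatic, STAR, Cufflinks and the build mm10 are named in the submitters' processing notes, and their versions are not given in the sources used here. The 4 rows that name no gene, which held from 61.3 to 69% of that column, were left out, as were names with more than 1 FPKM entry. For the summed sample, FPKM is the mean of both libraries. At this depth a gene of 1 CPM rests on few reads, the labels name no molecular identifiers, and counting error is only part of the spread.

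Counts were fitted with edgeR 4.0.16 in R 4.3.3 (TMM, filterByExpr, quasi-likelihood test, 1 mean per group over all 4 groups, 9 residual degrees of freedom) and p-values adjusted over the 9644 genes left. CPM uses TMM library sizes with Rn45s kept in, log2 CPM a prior count of 2. Alternatives were other scalings, DESeq2 1.42.0, no filter, Rn45s left out, 14 separate libraries, the replicate number as a block and each sample left out. Another was limma 3.58.1 on log2(FPKM + 1) or log2(FPKM + 0.1), whose fold changes understate low genes. The fit was tested on simulated data. Promoters are from RefSeq. Genes were named by rule: all 10, wider-list genes called in any contrast, the 10 most alike, and defining markers. Genes named outside this rule, such as ligands and receptors of the lists, are examples chosen after their values were seen. The 10 genes, the lists and the rules were chosen with earlier results of these data known.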

Additional observations from a re-analysis of the deposited data

How the results depend on the processing

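Counts of called genes moved with the processing. The cause was not tested. Values follow the order tunicamycin in WT, tunicamycin in LKO, genotype with vehicle, genotype after tunicamycin. Genes called were 35, 3, 4 and 83, and wider-list genes called 1, 0, 0 and 2. Leaving out 1 sample gave 0 to 615, 0 to 67, 0 to 17 and 0 to 183 genes, and 0 to 7, 0 to 1, 0 to 2 and 0 to 7 wider-list genes. The 9 genes with a positive value numbered 4 to 8, 5 to 7, 6 to 9 and 7 to 9. For the difference between the tunicamycin effects, 0 to 2 genes were called, 0 to 0 wider-list genes, and 1 to 6 of the 9 were positive.

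With total count scaling 148, 8 and 164 genes were called (WT tunicamycin and both genotype comparisons), with 1 and 6 wider-list genes between genotypes, and 6 of 9 were positive for the difference of effects. The DESeq2 Wald test called 154, 47, 20 and 138 genes and 2, 1 and 3 wider-list genes in the first 3. Without a filter 289, 153, 84 and 261 genes and 4, 2, 7 and 9 wider-list genes were called. With 14 libraries kept apart 56, 5 and 12 were called in the first 3, with 2 wider-list genes with vehicle, and 1 of 9 was positive for the difference. Ignoring strand gave 53 in WT. LKO vehicle library 3 alone gave 1 gene for tunicamycin in LKO and 1 wider-list gene with vehicle.

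With log2(FPKM + 1) 0, 1, 0 and 7 genes were called and, in WT tunicamycin and after tunicamycin, 0 and 1 wider-list genes; 5 of 9 were positive for the difference. With log2(FPKM + 0.1) these were 0, 2 and 8 genes (without tunicamycin in LKO), 0 and 1, and 5. With a mean FPKM of at least 1, which left 5 of the 9, there were 3, 0, 0 and 39 genes, 0 and 1 wider-list genes, and 2, 2, 5 and 5 positive. At an unadjusted p under 0.05, limma gave 1984 and 2071 genes in WT in the unfiltered fits that called 0 there, 1111 with vehicle in the first, and 607 and 298 where the filtered fit called 0.

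With the replicate number as a block, 5 genes were called for tunicamycin in LKO, 0 with vehicle (842 at an unadjusted p under 0.05 by edgeR) and 32 after tunicamycin. Wider-list genes called were 0 in WT tunicamycin and after tunicamycin. Itga8, at 1.61, was not called and Cxcl14, at 2.66, was, and nothing is read from either. Samples share only a number: their deviations correlated from -0.187 to 0.268, and 4 of 13 correlated best with their own number.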
